A study of Mus musculus with 38 samples.

Results

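The 7 genes described here, Slpi, S100a8, S100a9, S100g, Serpinb2, Clu and Lcn2, encode mostly secreted or released proteins known from stressed and barrier epithelia. They were taken by symbol as 7 of 35976 rows in the first deposited expression table, 7 of 37108 in the second and 7 of 20695 in the single-cell table. They were chosen because their expression values in these same samples were already known, so those values are given as a description and carry no test. The study asked how BMP4, a secreted signalling protein, and the transcription factor SALL4 steer mouse embryonic fibroblasts (MEFs) between pluripotency and extra-embryonic fates. MEFs were derived from E13.5 embryos carrying the Oct4-GFP reporter (OG2 crossed with 129S4/SvJaeJ), and the factors were delivered by pMXs retroviruses in 2 rounds of infection.

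The bulk RNA-seq comprised 23 libraries. In JGES reprogramming, which uses Jdp2, Glis1, Esrrb and Sall4, cells were sampled at days 0, 1, 3, 5 and 7 in iCD3 medium without BMP4 (BMP4-) and at days 1, 3, 5 and 7 with BMP4 at 10 ng/ml (BMP4+). The same medium was used at day 7 for JGE (no Sall4), JGEO (Oct4 in place of Sall4) and JGESO (all 5 factors), each BMP4- and BMP4+. Wild-type SALL4 (SALL4-WT) or a form lacking its 12 N-terminal residues (SALL4-delN12) was given alone, without BMP4, and sampled at days 1, 5, 9 and 11. Single-cell RNA-seq covered JGES at day 7, 1 sample BMP4- and 1 BMP4+. ATAC-seq, which reads open chromatin, covered untreated MEFs and both SALL4 forms at the same 4 days, and Cut&Tag at day 6 mapped SALL4 and the active chromatin mark H3K27ac with each form. Each condition was 1 library or 1 sample in the files, so there was no replicate error against which to set a difference, and no p-value is given.

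As background, Slpi and Lcn2 are small secreted proteins of the mucosal defence, a protease inhibitor and an iron-siderophore carrier. S100a8 and S100a9 are calcium-binding proteins that pair as calprotectin, abundant in neutrophils and switched on in injured or inflamed squamous epithelium. S100g, also called calbindin-D9k, buffers calcium in absorptive epithelia, uterus, placenta and yolk sac, Serpinb2 is the plasminogen activator inhibitor type 2 of keratinocytes, macrophages and trophoblast, and Clu is an extracellular chaperone that rises in many stressed epithelia.

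Of the delivered factors, Sall4 alone was checked in the libraries. Sall4 stood at 174 to 971 FPKM in the 19 bulk libraries from cells given Sall4 and at 2.09 to 30.3 FPKM in the 4 without it. The JGES cells already stood at 650.4 FPKM at day 0, so day 0 is not an untreated fibroblast. Read depth was not given with the FPKM values. Genes at 1 FPKM or more numbered 12030 to 14235 per library, and 14621 and 14081 in the second copy of the JGES day 7 libraries, used between factor sets. Of 13 neutrophil marker genes, 2, Elane and Retnlg, were listed at 0 in all libraries and no marker passed 2.90 FPKM. The summed level of 10 macrophage markers was 4.70 to 13.2 FPKM in the JGES time course, 176 to 447 with SALL4-WT, 412 to 1130 with SALL4-delN12 and 58.5 to 194 in JGE, JGEO and JGESO. In bulk RNA, fewer cells of a type and less RNA per cell cannot be told apart.

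The start regions of 4 genes are shown, S100a8, Slpi and Serpinb2 because the peaks over or beside their starts differed between libraries, and S100a9 as the neighbour and partner of S100a8. S100a8 and S100a9 lie side by side on chromosome 3 with 22596 bases between them, on opposite strands. Each sequence below is the 250 bases before the RefSeq start on GRCm38.p6 (mm10), read 5′ to 3′ on the gene's strand: S100a8 at chr3:90668821-90669070 (+), S100a9 at chr3:90695722-90695971 (-), Slpi at chr2:164356508-164356757 (-) and Serpinb2 at chr1:107511173-107511422 (+). Capitals mark matches on either strand to a TATA box (TATAAA), an AP-1 site (TGANTCA), a C/EBP site (TTNCNNAA), an NF-kB site (GGG, any 3 bases, then TTCC) and a GATA site (AGATAA).
S100a8: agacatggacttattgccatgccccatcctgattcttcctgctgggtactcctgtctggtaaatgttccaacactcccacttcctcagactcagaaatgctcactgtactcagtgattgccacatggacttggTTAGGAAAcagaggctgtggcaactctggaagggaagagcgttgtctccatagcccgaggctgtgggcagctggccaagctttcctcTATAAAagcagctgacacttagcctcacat
S100a9: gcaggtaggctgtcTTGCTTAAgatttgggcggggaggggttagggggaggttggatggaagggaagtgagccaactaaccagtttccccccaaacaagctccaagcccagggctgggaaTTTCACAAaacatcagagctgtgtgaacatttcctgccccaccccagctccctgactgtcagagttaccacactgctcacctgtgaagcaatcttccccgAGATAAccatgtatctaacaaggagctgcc
Slpi: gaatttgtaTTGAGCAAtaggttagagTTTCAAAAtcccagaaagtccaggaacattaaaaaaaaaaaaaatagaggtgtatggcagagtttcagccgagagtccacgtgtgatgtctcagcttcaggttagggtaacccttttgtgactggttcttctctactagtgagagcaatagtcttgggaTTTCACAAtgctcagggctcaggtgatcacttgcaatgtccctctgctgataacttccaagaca
Serpinb2: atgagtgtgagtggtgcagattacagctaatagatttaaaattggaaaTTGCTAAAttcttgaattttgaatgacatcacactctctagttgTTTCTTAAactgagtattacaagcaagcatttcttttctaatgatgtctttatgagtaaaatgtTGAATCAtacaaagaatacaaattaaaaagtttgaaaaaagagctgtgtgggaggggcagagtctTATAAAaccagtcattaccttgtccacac

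S100a8 and Serpinb2 each held the TATA letters close to the start, at -30 to -25 and at -29 to -24, where a TATA box usually lies, and 14.3% of all 27025 genes in the RefSeq promoter table had a match anywhere in the window. S100a9 had the letters AGATAA at -30 to -25, a match found in 11.4% of genes. Serpinb2 held an AP-1 match at -94 to -88, which 7.82% of genes share. RefSeq lists another Serpinb2 start, at 107511510, from which the TATA letters lie at -116 to -111, the AP-1 match at -181 to -175 and the letters AGATAA at -41 to -36. C/EBP factors drive acute-phase and myeloid genes, and their short consensus matched in the printed windows of all 4 genes, 3 times in Slpi, 2 times in S100a9 and Serpinb2 and once in S100a8, but 40.3% of all genes matched as well. The NF-kB letters, present in 5.31% of genes, matched in none of the 4 windows. The matches in these windows did not overlap each other. Of the 7 genes, 6 had an entry in the promoter table.

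In JGES reprogramming without BMP4, Slpi, the calprotectin genes and Serpinb2 were almost silent. Slpi, the protease inhibitor, was listed at 0 FPKM at days 0, 1, 3 and 5 and at 0.435 at day 7. With BMP4 it was listed at 0 at day 1 and then stood at 0.407, 11.2 and 143 FPKM at days 3, 5 and 7. The 2 conditions parted at day 5, and the difference on the log2(FPKM + 1) scale was 3.61 at day 5 and 6.65 at day 7. S100a8 and S100a9, the calprotectin pair, followed the same course. S100a8 without BMP4 was 0, 0, 0.882, 0 and 0.972 FPKM at days 0, 1, 3, 5 and 7, and with BMP4 it was 0, 1.82, 2.67 and 36.7 FPKM at days 1, 3, 5 and 7. S100a9 without BMP4 was above 0 at day 1 alone, at 0.62 FPKM, and with BMP4 it was 0, 0, 17.3 and 68.3 FPKM at days 1, 3, 5 and 7. At day 5 S100a9 thus stood above S100a8, its usual partner, and the log2 differences at day 7 were 4.26 for S100a8 and 6.11 for S100a9.

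Serpinb2, the intracellular and secreted inhibitor of urokinase, was listed at 0 in all 5 BMP4- libraries of the time course. With BMP4 it was 0, 0.32, 3.61 and 21.3 FPKM at days 1, 3, 5 and 7, with log2 differences of 2.2 at day 5 and 4.48 at day 7. Clu, the chaperone, stood above the other 6 genes in each of the 9 JGES libraries. Without BMP4 it was 29.4, 30.5, 27 and 23.4 FPKM at days 0, 1, 3 and 5, and 46.8 at day 7. With BMP4 it was 21.6, 203, 1230 and 2555 FPKM at days 1, 3, 5 and 7, which placed it 15th by FPKM among all genes at day 7, against 1324th without BMP4. Clu parted upward at day 3, before the other 6 did, with a log2 difference of 2.87, and stood at 5.66 and 5.74 at days 5 and 7.

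S100g and Lcn2 behaved differently from the rest. S100g, the calcium buffer, was present without BMP4 too, at 0, 0, 4.32, 5.25 and 15.1 FPKM at days 0, 1, 3, 5 and 7. With BMP4 it was 0, 5.95, 19.7 and 81.9 FPKM at days 1, 3, 5 and 7, so both conditions climbed and the log2 difference at day 7 was 2.37. Lcn2, the siderophore carrier, had its highest BMP4- level at day 1. Its BMP4- levels were 3.94, 29.7, 8.10, 4.06 and 8.49 FPKM at days 0, 1, 3, 5 and 7, and its BMP4+ levels were 13.9, 9.62, 8.19 and 23.4 FPKM at days 1, 3, 5 and 7. Lcn2 was thus lower with BMP4 at day 1, by a log2 difference of -1.04, and higher at day 7, by 1.37.

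**Figure D1:**
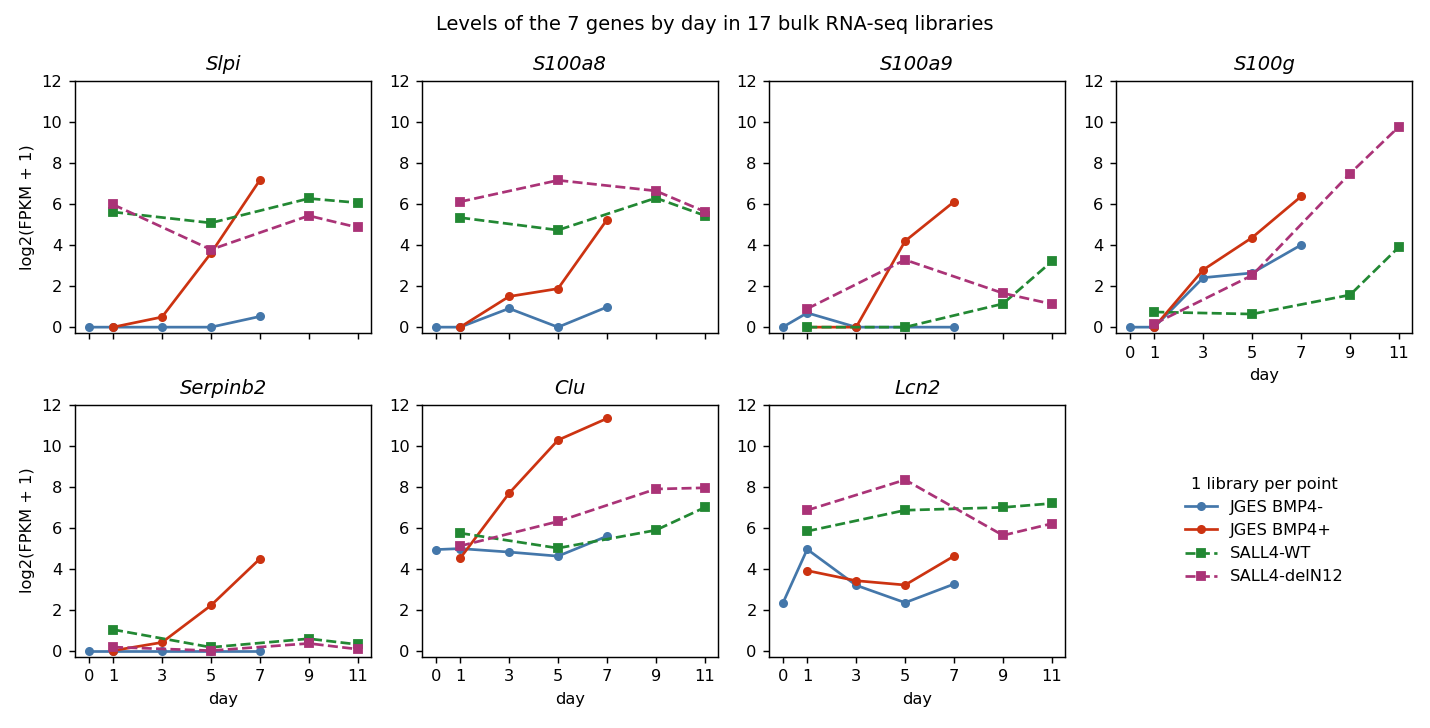
Levels of the 7 genes as log2(FPKM + 1) on the vertical axis against day on the horizontal axis, 1 library per point, for JGES BMP4-, JGES BMP4+, SALL4-WT and SALL4-delN12. Clu leaves its BMP4- level at day 3 (203 against 27 FPKM), Slpi, S100a9 and Serpinb2 at day 5, and S100g climbs to 877 FPKM with SALL4-delN12 at day 11.

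A gene was counted as past the limit in a comparison where it reached 1 FPKM in either library and its log2(FPKM + 1) difference was 1 or more in size. At day 1, 2 of the 7 genes reached 1 FPKM and 1, Lcn2, was lower with BMP4, against 5.72% of all genes lower. At day 3, 4 reached it and 1, Clu, was higher, against 6.81% of all genes higher. At day 5 all 7 reached it and 6 were higher, against 8.78%, Lcn2 being short of the limit at 0.86. At day 7 all 7 were higher, against 10.3%. The genes were chosen with these values known, so nothing is read from these counts, and some genes reached 1 FPKM through the BMP4+ library alone. The median of all genes lay at -0.18 at day 5 and -0.14 at day 7, so the differences of the 7 are slightly larger relative to it.

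Relatives and partners of the 7, listed without them, held genes higher past the limit at day 7, though in several lists most members did not pass it. Of 8 other S100 genes that reached 1 FPKM, 6 were higher and 0 lower past the limit, with a median log2 difference of 2.11. S100a4 went from 2.43 to 58.8 FPKM and S100a6, a gene of proliferating and stressed epithelium, from 26.5 to 447. Of 6 other clade B serpins 3 were higher and 0 lower, with Serpinb8 at 0.308 and 4.76 FPKM. Of 5 other WAP and lipocalin genes 2 were higher and 0 lower, Rbp4, the retinol carrier, and Orm1. Of 13 targets, partners and receptors 4 were higher, among them Mmp9, the gelatinase whose protein binds that of Lcn2, at 14.8 and 148 FPKM, and Plaur, the urokinase receptor, at 2.67 and 19.

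Of 10 squamous epithelium genes 9 were higher and 0 lower at day 7, with a median log2 difference of 2.07, and Krt5, a keratin of basal epithelial cells, went from a listed 0 to 63.0 FPKM. Ivl, the cornified-envelope protein involucrin, went from a listed 0 to 4.87 FPKM. Acute-phase and inflammatory genes moved less as a group, with 6 of 16 higher, 0 lower and a median of 0.47. Among them Cebpb, a C/EBP factor, was 28.6 and 134 FPKM. Simple epithelium genes were divided, 8 of 15 higher and 2 lower, as were trophoblast and decidual genes, 4 of 9 higher and 2 lower with a median of -0.28. The lists were assembled with earlier results known, and their counts stand beside 10.3% of all genes higher and 13.8% lower. Only list genes at 1 FPKM or more in either library were counted. Some, such as Krt5 and Ivl, reached it through the BMP4+ library alone and so could not be lower. Of 16 squamous genes, 3 were counted in JGE, 3 in JGEO, 10 in JGES and 12 in JGESO.

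The factor sets at day 7 differed in how much of this pattern they showed with BMP4. In the JGE cells, which lack Sall4, Slpi was 0.144 FPKM without BMP4 and 7.67 with it. S100a8 was 1.28 and 2.32, S100a9 was 0 and 0.401, and Serpinb2 was 0.0565 and 0.534 FPKM. Clu and S100g were lower with BMP4 in JGE, at 175 and 110 FPKM for Clu and at 50.5 and 16.2 for S100g, while Lcn2 was 13.7 and 25.5. Of 5 genes at 1 FPKM or more, Slpi was higher past the limit, against 4.28% of all genes, and S100g lower, against 4.78%. Among relatives, 0 of 8 other S100 genes were higher and 2 lower, and 0 of 4 WAP and lipocalin genes higher and 1 lower. Of 3 squamous genes 1 was higher and 0 lower.

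In the JGEO cells Slpi, S100a8, S100a9 and Serpinb2 were near 0 in both conditions. Slpi was 0.426 FPKM without BMP4 and 0.394 with it, S100a8 was 0.634 and 0.352, and S100a9 and Serpinb2 were listed at 0 in both. Clu was 38.0 and 16 FPKM, Lcn2 was 8.30 and 1.86, and S100g was 0.777 and 3.02. Thus 3 genes could be counted, S100g higher, against 2.26% of all genes, and Clu and Lcn2 lower, against 1.95%. Among relatives, 0 of 8 other S100 genes and 0 of 3 squamous genes passed the limit. Of 4 WAP and lipocalin genes 1 was higher and 1 lower.

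In the JGESO cells the pattern was present at a lower level than in JGES. Slpi was 2.02 FPKM without BMP4 and 16.1 with it, S100a8 was 0.258 and 6.26, and S100a9 was 0 and 2.86. Clu was 90.1 and 289, Lcn2 was 15.2 and 11.7, and Serpinb2 was listed at 0 in both, while S100g was 159 and 252 FPKM, above every JGES library. Of 6 genes, 4 were higher past the limit (Slpi, S100a8, S100a9 and Clu), against 5.29% of all genes. Among relatives, 5 of 9 other S100 genes, 3 of 5 WAP and lipocalin genes and 10 of 12 squamous genes were higher and 0 lower. Of 12 targets, partners and receptors and of 1 clade B serpin 0 passed the limit, and 1 gene was higher and 1 lower among 12 acute-phase and among 15 simple epithelium genes, beside 3.52% of all genes lower. Summed macrophage markers were 58.5 FPKM without and 123 with BMP4 in JGESO, with 2 of 8 markers higher and 0 lower, and their part in the values of the 7 genes was not tested.

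**Figure D2:**
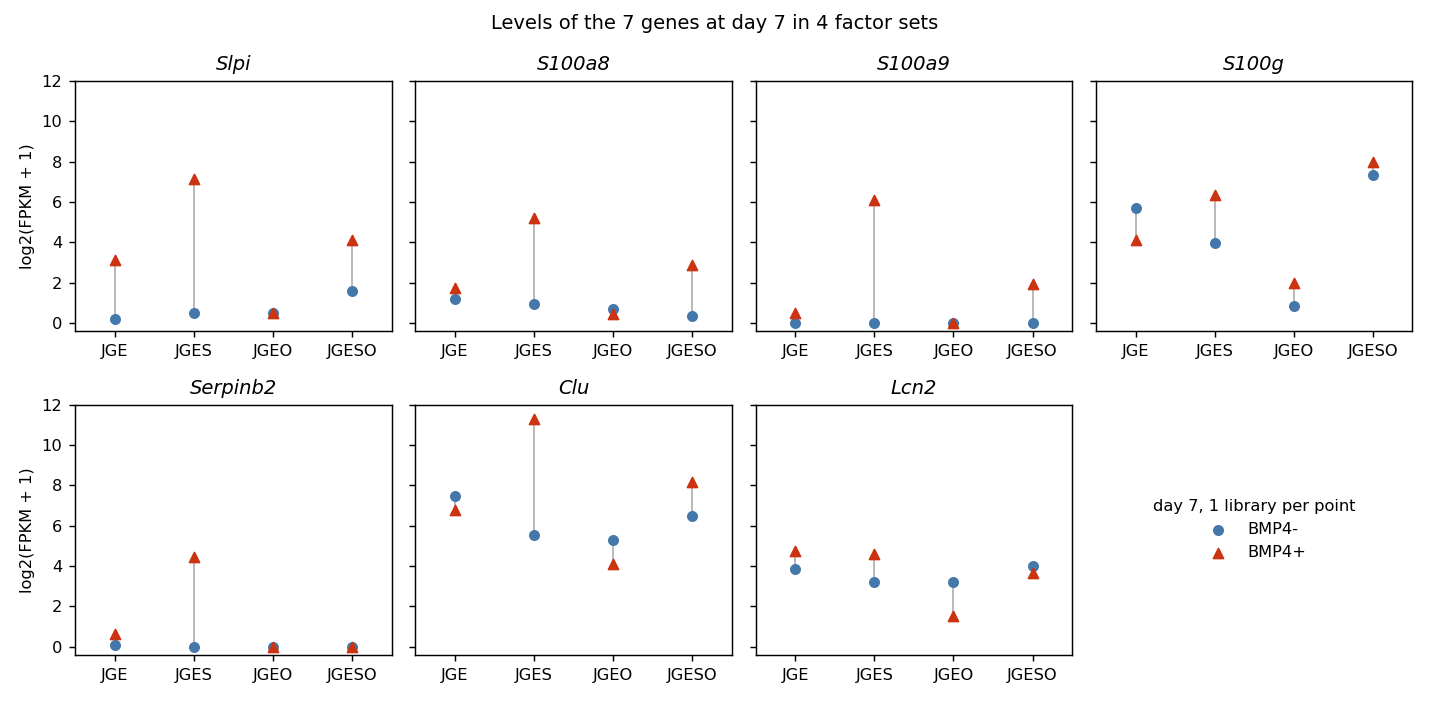
Levels of the 7 genes at day 7 as log2(FPKM + 1) for JGE, JGES, JGEO and JGESO, 1 library per point, with circles for BMP4- and triangles for BMP4+ joined by a line. The lines of Slpi, S100a8, S100a9, Serpinb2 and Clu are longest in JGES, where Clu stands at 45.6 and 2499 FPKM, and the line of S100g points down in JGE.

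The factor sets were also compared with each other within a condition. With BMP4, 6 of 7 genes were higher in JGES than in JGE past the limit, against 12.1% of all genes, with Lcn2 at 22.9 against 25.5 FPKM the exception. Without BMP4, 0 of 4 counted genes were higher in JGES than in JGE, where 3230 of all 16066 genes were higher. Lower in JGES were 2, S100g and Clu, against 16.9% of all genes lower. JGESO with BMP4 stood below JGES with BMP4 for 5 of 7 genes (Slpi, S100a8, S100a9, Serpinb2 and Clu), against 24.9% of all genes lower, and above it for S100g, against 14% of all genes higher. Squamous genes did not fall with those 5, as 7 of 13 were higher and 1 lower in JGESO, with a median log2 difference of 2.10. Between JGES and JGE with BMP4, 8 of 10 squamous genes were higher in JGES and 0 lower. Without BMP4, Slpi and S100g, of 4 counted genes, stood higher in JGESO than in the JGES library, against 16.8%. These comparisons share libraries with those above. With BMP4 the summed macrophage markers were 133 FPKM in JGE, 9.69 in JGES and 123 in JGESO, lowest in the set where most of the 7 genes were highest. Without BMP4 the sums were 194, 6.57 and 58.5 FPKM, with 9 of 9 counted markers lower in JGES than in JGE and 7 of 8 higher in JGESO than in JGES, the same directions as S100g and Clu and as Slpi and S100g. The part of macrophages in these differences was not tested.

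In cells given SALL4 alone, without BMP4 and without the other factors, Slpi, S100a8 and Lcn2 stood at high levels from day 1. This series had no RNA library of day 0 or of cells without SALL4. The levels therefore cannot be assigned to SALL4 rather than to the cells of the series. With SALL4-WT, Slpi was 48.0, 32.9, 76.4 and 66.0 FPKM at days 1, 5, 9 and 11. With SALL4-delN12 it was 62.1, 12.8, 42.2 and 28.1, lower at days 5, 9 and 11 and overlapping the SALL4-WT range. S100a8 was 39.5, 25.6, 77.7 and 42.4 FPKM with SALL4-WT and 68.3, 142, 99.1 and 48.6 with SALL4-delN12, higher with the truncated form on each day. Its partner did not keep pace, since S100a9 was 0, 0, 1.20 and 8.24 FPKM with SALL4-WT and 0.862, 8.74, 2.15 and 1.18 with SALL4-delN12. In the 8 SALL4 libraries S100a8 therefore stood above S100a9 in each, whereas in JGES with BMP4 S100a9 stood above S100a8 at days 5 and 7.

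S100g was the gene that parted the SALL4 forms most at days 9 and 11, after S100a9 and S100a8 at day 5. It was 0.669, 0.557, 1.97 and 14 FPKM with SALL4-WT and 0.118, 4.77, 179 and 877 with SALL4-delN12 at days 1, 5, 9 and 11. The 2 forms were both near 0 at day 1 and differed by 5.92 and 5.87 on the log2 scale at days 9 and 11. Clu was 52.1, 30.9, 57.6 and 126 FPKM with SALL4-WT and 33.3, 77.7, 235 and 244 with SALL4-delN12. It was thus lower with the truncated form at day 1 and higher from day 5, with log2 differences of 1.30, 2.01 and 0.96 at days 5, 9 and 11. Serpinb2 stayed at or below 1.04 FPKM in the 8 libraries, its highest value being SALL4-WT at day 1.

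Lcn2 changed sides between the forms. It was 55.6, 114, 126 and 144 FPKM with SALL4-WT at days 1, 5, 9 and 11, and 114, 321, 48.2 and 72.2 with SALL4-delN12. The log2 difference was 1.02 and 1.48 at days 1 and 5, and -1.37 and -0.98 at days 9 and 11. Its 8 values with SALL4 alone lay above all 9 JGES values, which reached at most 29.7 FPKM.

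Counted against the limit, 1 of 5 genes, Lcn2, was higher with SALL4-delN12 at day 1, against 4.18% of all genes. At day 5, 5 of 6 were higher (S100a8, S100a9, S100g, Clu and Lcn2), against 4.67%, and Slpi was lower, against 5.19%. At day 9, S100g and Clu of 6 were higher, against 6.09%, and Lcn2 was lower, against 5.75%. At day 11, S100g was higher, against 6.55%, and Slpi and S100a9 were lower, against 6.58%. The genes past the limit thus differed from day to day.

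Other acute-phase and inflammatory genes were lower with SALL4-delN12 on most days, unlike S100a8. Without the 7, 17 of 20 were lower and 1 higher at day 1, 11 of 18 lower and 0 higher at day 5, 11 of 18 lower and 1 higher at day 9, and 7 of 18 lower and 0 higher at day 11. Of all genes 5.63%, 5.19%, 5.75% and 6.58% were lower on those days. Squamous genes had no single direction, with 2 higher and 2 lower of 8 at day 1, 8 and 1 of 11 at day 5, 5 and 3 of 11 at day 9, and 4 and 2 of 11 at day 11. Simple epithelium genes were higher, 5 of 10, 9 of 12, 11 of 13 and 11 of 15 on the 4 days with 0 lower. Macrophage markers were 3 higher and 2 lower of 9 at day 1, and 5, 8 and 9 of 9 were higher and 0 lower at days 5, 9 and 11. Of all genes 4.18%, 4.67%, 6.09% and 6.55% were higher on the 4 days. S100a8 and Lcn2 can also be expressed by macrophages, and the part of such cells in their values was not tested.

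Chromatin at the start of S100a8 differed from that of fibroblasts. ATAC peaks covered the start in all 8 SALL4 libraries, with the deposited peak scores at 329, 557, 599 and 760 for SALL4-WT at days 1, 5, 9 and 11 and at 343, 419, 396 and 247 for SALL4-delN12. MEFs had no peak within 2 kb, their nearest lying at -4569 bases from it. A peak within 2 kb in all 8 SALL4 libraries and not in MEFs was found for 0.34% of 27025 genes, 92 in number. S100a8 also carried SALL4 peaks over its start with both forms (219 for SALL4-WT and 144 for SALL4-delN12) and H3K27ac peaks with both (50.6 and 151), and 0.196% of genes had the ATAC pattern together with both SALL4 peaks. Both patterns are the ones seen at S100a8 itself, so these shares are a description and no test. The ATAC peaks lay over the printed start region, TATA letters included. S100a9, its neighbour, had no peak within 5 kb of its start in any of the 13 libraries, and 32.1% of genes had none within 2 kb. In RNA, macrophage markers summed to 176 to 447 FPKM with SALL4-WT and 412 to 1130 with SALL4-delN12. The part of such cells in the peaks of S100a8, and of Slpi below, was not tested.

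Slpi gained ATAC peaks beside its start in 7 of 8 SALL4 libraries, SALL4-WT at day 1 and MEFs being without one within 2 kb, and in 5 of 8 at a score of 100 or more, with Slpi RNA at 48.0 FPKM in the SALL4-WT library of that day. That library had peaks somewhat farther out, at -2503 (score 132) and -2761 bases (111), so that within 5 kb all 8 SALL4 libraries had one and MEFs had none. The share of all genes with either of these ATAC patterns was not counted. The peak nearest to or over the start had a score of 68.3 to 158 in those 7 libraries. With SALL4-delN12 a SALL4 peak (300.2) and an H3K27ac peak (181) covered the start. With SALL4-WT the SALL4 peak (264) lay 2259 bases upstream and no H3K27ac peak was called within 2 kb. A SALL4 peak within 2 kb with SALL4-delN12 and not with SALL4-WT was found for 4.45% of genes, and the same for H3K27ac for 10.9%. The H3K27ac lists held 45599 peaks for SALL4-delN12 and 19841 for SALL4-WT, so more genes could gain such a peak with the truncated form.

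The other genes showed less. Clu had an ATAC peak over its start in all 9 libraries, highest in MEFs (1455, against 527 to 912 with SALL4), SALL4 peaks with both forms and an H3K27ac peak (125) with SALL4-delN12. Serpinb2 had no ATAC peak within 5 kb of its start and a weak SALL4 peak (68.5) over its start with SALL4-delN12. Lcn2 had an ATAC peak (68.0) in SALL4-WT at day 5 alone and an H3K27ac peak (53.7) with SALL4-WT and not SALL4-delN12, which 1.19% of genes shared. S100g, whose RNA differed most between the forms at days 9 and 11, had weak ATAC peaks within 2 kb at day 9 with both forms (70.3 and 66.2) and no Cut&Tag peak. A peak list holds only what passed the caller's limit, a score of 50, so an unlisted peak is not a measured 0.

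**Figure D3:**
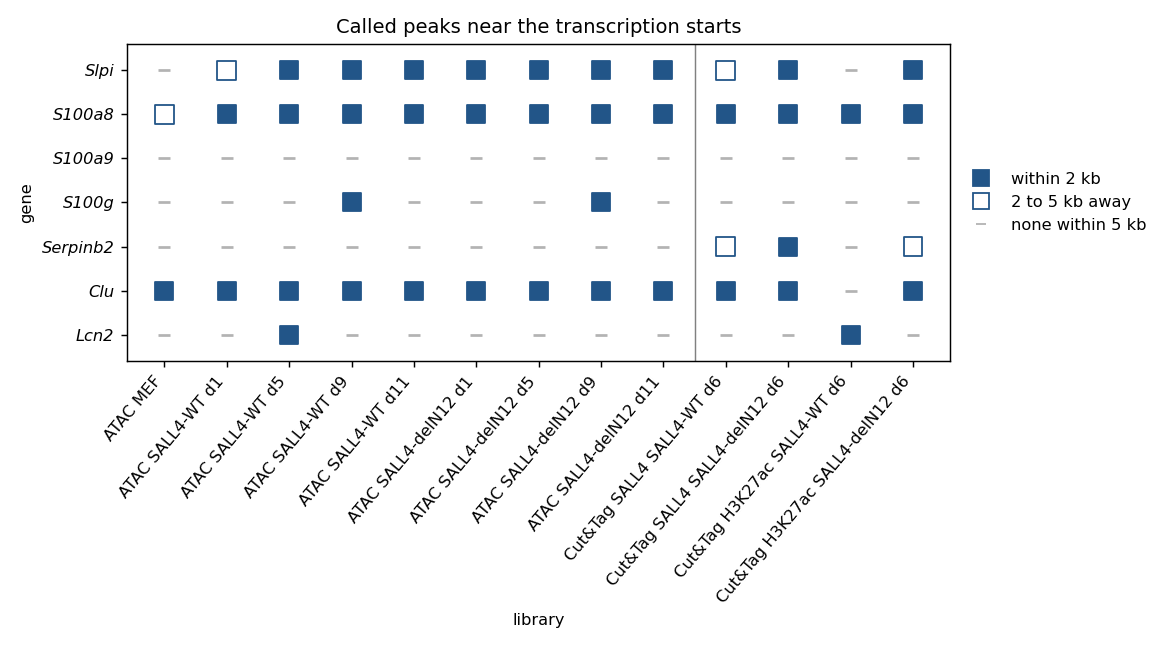
Deposited peaks near the start of each gene (rows) in 9 ATAC-seq and 4 Cut&Tag libraries, where a filled square is a peak within 2 kb, an open square one 2 to 5 kb away and a dash none within 5 kb. S100a8 is filled in all 8 SALL4 ATAC libraries but not in MEFs, Clu is filled in all 9, and S100a9 has none throughout.

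The single-cell samples showed which cells carried the RNA at day 7 of JGES. There were 11335 BMP4+ cells (median 21205 UMIs) and 8685 BMP4- cells (median 12738 UMIs), and 2 barcodes occurred in both samples. By the authors' annotation the BMP4+ cells were 7125 intermediate, 2372 primitive endoderm-like (PrECLC, read from the deposited label ParE), 1453 endothelial and 385 placenta-like cells, and the BMP4- cells were 6211 intermediate, 142 PrECLC, 507 endothelial and 1825 pluripotent cells. All 6 markers listed for a type were highest in that type, with 5 of 6 for placenta-like cells and for BMP4- intermediate cells. Levels are given as CPM, the UMIs of a gene summed over the cells and scaled to the total of those cells, and 95% intervals, exact Poisson for levels and Clopper-Pearson for shares, cover counting error only.

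Slpi, S100a8, S100a9 and Serpinb2 were nearly confined to the BMP4+ sample. Slpi was at 227 CPM with BMP4 and 0.796 without, 286-fold higher (interval 234 to 352). S100a8 was at 79.6 and 0.901 CPM, 88.4-fold higher (73.3 to 107), and S100a9 at 151 and 0.146 CPM, 1030-fold higher (652 to 1738). The BMP4- side of these ratios rests on few cells. Of 111 S100a8 UMIs 2 cells held 77.5%, of 18 S100a9 UMIs 1 cell held 66.7%, and of 98 Slpi UMIs 1 cell held 37.8%. In intermediate cells alone S100a8 was 702-fold and S100a9 6840-fold higher, the latter on 3 BMP4- UMIs. Serpinb2 had 2495 UMIs with BMP4 and 0 without, at least 380-fold higher when 3 counts stand in for 0. Clu was at 1923 and 84.5 CPM, 22.8-fold higher, S100g at 811 and 111 CPM, 7.31-fold higher, and Lcn2 at 31.0 and 12.9 CPM, 2.41-fold higher (2.28 to 2.54, counting error only). Without the 1% of cells of each sample richest in the gene, the ratio was 17.7 for S100g and 5.08 for Lcn2. Those cells held 65.0% of the BMP4- and 15.4% of the BMP4+ S100g UMIs, and 85.1% and 68.7% for Lcn2. Leaving them out therefore lowered the BMP4- side more, and the larger ratios are no sign of a firmer difference. All 7 were thus higher by 2-fold or more, against 29.5% of all genes at 1 CPM or more in either sample. The 2 samples were 1 each, so these ratios compare the samples rather than the treatments.

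Most of this RNA lay in the intermediate cells, the largest class. They held 97.7% of the Slpi UMIs of the BMP4+ sample, 95% of S100a8, 98.0% of S100a9, 95.2% of Serpinb2, 92.9% of Clu and 96.0% of Lcn2, while holding 62.9% of the cells and 59.8% of all UMIs. In them Slpi was at 371 CPM, S100a8 at 127, S100a9 at 247, Serpinb2 at 14.7, Clu at 2987 and Lcn2 at 49.8. The BMP4- intermediate cells had 0.866, 0.180, 0.0361, 0, 81.7 and 11.5 CPM of the same genes. All 7 were higher in BMP4+ than in BMP4- intermediate cells, against 29.1% of genes.

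S100g was the exception and with BMP4 lay mostly in the primitive endoderm-like cells. They held 73.2% of its BMP4+ UMIs, 16.3% lying in intermediate and 8.9% in endothelial cells. Its level was 2600 CPM (2587 to 2612) in PrECLC, 557 in endothelial cells, 304 in the placenta-like class and 221 in the intermediate one. Without BMP4 the same 2 classes led, with 1218 CPM in PrECLC and 1097 in endothelial cells, against 20.2 in intermediate and 14.9 in pluripotent cells, and endothelial cells held 67.6% of its UMIs and PrECLC 16.9%. The S100g level of PrECLC was 2.13-fold higher with BMP4, and that of endothelial cells was lower, at 0.507 of the BMP4- level. In PrECLC, S100g, Slpi, S100a8 and S100a9 were higher past 2-fold, against 25.2% of genes, but Slpi (29.8-fold, interval 5.34 to 1179) rests on 1 UMI in 142 BMP4- cells, and S100a8 (at least 7.09-fold) and S100a9 (at least 4.63-fold) on 0. With BMP4 these 3 genes were at 15.8, 11.2 and 7.34 CPM in PrECLC, a small part of their level in intermediate cells. The part of free RNA in these low levels was not measured, so they are not read as expression by the class.

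**Figure D4:**
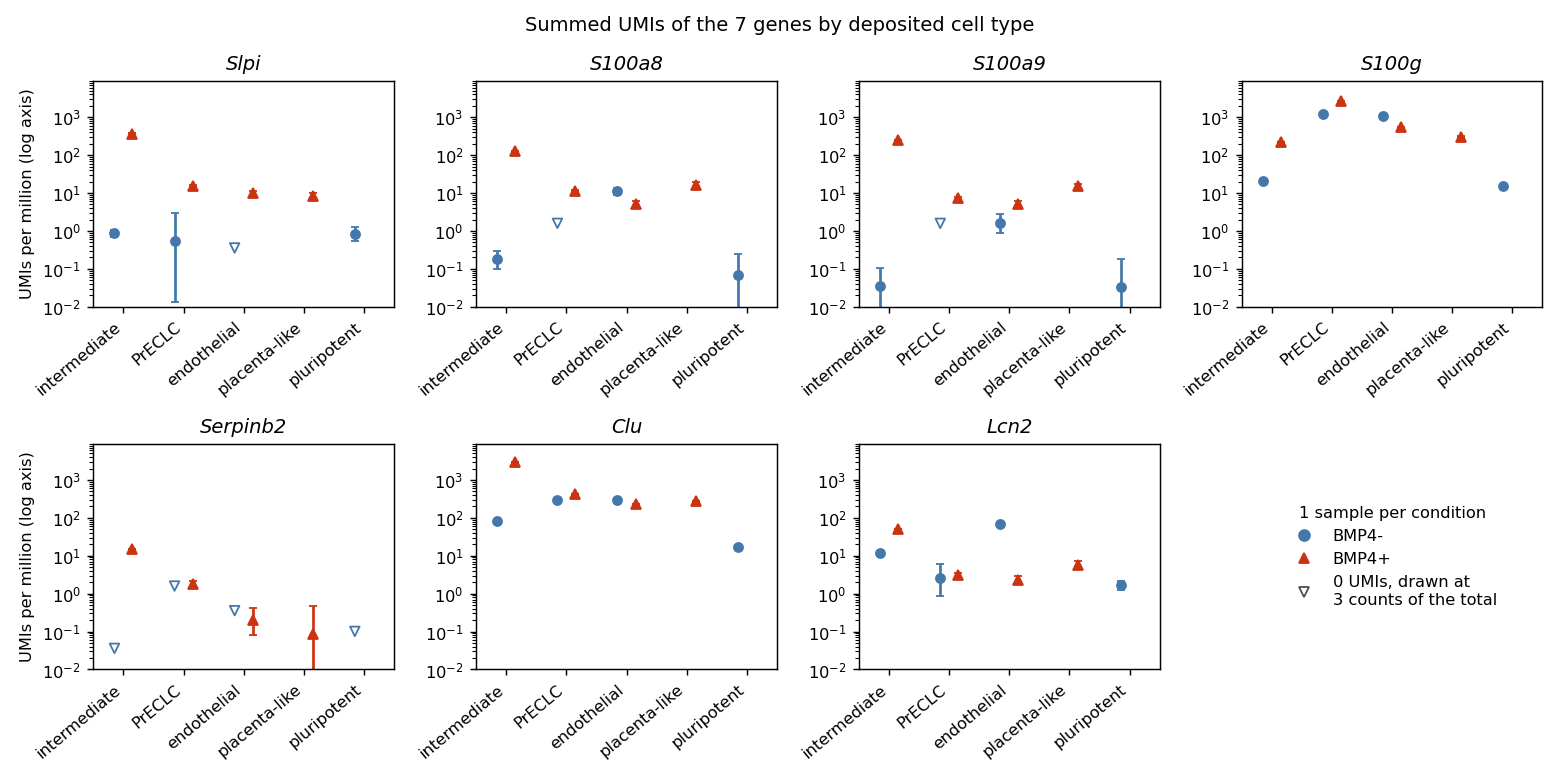
Levels of the 7 genes in CPM on a log axis for each annotated cell class of the BMP4+ and BMP4- samples, each point being the summed cells of 1 class in 1 sample and bars the 95% Poisson interval, with open triangles at the level of 3 counts where no UMI was found. In BMP4+ cells 6 genes are highest in intermediate cells and S100g in PrECLC, at 2600 CPM against 221.

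In endothelial cells the direction differed by gene. Slpi (at least 28.4-fold) and S100a9 (3.12-fold) were past 2-fold higher with BMP4, against 24.4% of genes, at 10.1 and 5.18 CPM with BMP4. Here too the part of free RNA was not measured. S100a8 and Lcn2 were lower, against 7.83%, with S100a8 at 5.27 with and 11.2 CPM without BMP4 and Lcn2 at 2.32 and 68.4 CPM. Of 13 neutrophil markers 10 were in the table, and their sum moved with these genes, reaching 49.2 CPM in endothelial cells without BMP4 but 8.59 with it, against 2.04 CPM in BMP4- intermediate cells. Summed macrophage markers moved the other way, with Slpi and S100a9, at 71.9 CPM without and 129.9 with BMP4. The part of such cells in the values of these 4 genes was not tested. The BMP4- endothelial levels rested on few cells, 94 S100a8 UMIs in 1.58% of 507 cells and 576 Lcn2 UMIs in 6.71%, and 1 cell held 50 of the former and 1 cell 240 of the latter. Without its richest BMP4- cell S100a8 was at 5.24 CPM, 1.01-fold with BMP4, so the lower call rests on that cell, and Lcn2 was at 39.98 CPM and 0.0580-fold. Without the richest cell of each sample S100a8 was 0.662-fold with BMP4, and without the richest BMP4+ cell alone 0.311-fold. S100a9 rested on 14 BMP4- UMIs, 12 of them in 1 cell, and was 21.8-fold without it and 2.05-fold without the richest BMP4+ cell. Leaving out cells in this way was chosen after seeing the data.

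Shares of cells with a UMI must be read against free RNA. Slpi was seen in 19% of intermediate cells but also in 20.0% of placenta-like cells, whose level was 8.42 CPM against 371 and whose median depth was 28906 UMIs against 19594. When each cell was thinned to 4000 UMIs the shares were 9.01% and 3.90%, with no cell below that depth. Over all BMP4+ cells the shares were 17.7% for Slpi, 11.4% for S100a8, 11.4% for S100a9, 66.9% for S100g, 2.45% for Serpinb2, 84.6% for Clu and 7.76% for Lcn2. After thinning they were 6.65%, 4.89%, 4.78%, 39.7%, 1.04%, 53.1% and 3.27%. Without BMP4 the thinned shares were 0.207%, 0.150%, 0.0230%, 9.33%, 0%, 13.7% and 1.49%, and 0 of 8685 cells for Serpinb2 allows, as 3 counts of the total, up to 0.0345% of cells with a UMI at this depth, which is no limit on cells expressing the gene. In PrECLC and endothelial cells the thinned shares were 2.53% and 2.55% for Slpi, 1.52% and 1.17% for S100a8, and 1.69% and 0.895% for S100a9, each below the 3.90%, 3.38% and 2.08% of placenta-like cells. A few cells outside the intermediate class were nonetheless rich, with 10, 11 and 8 PrECLC at 10 or more UMIs of Slpi, S100a8 and S100a9, up to 136, 198 and 48 in a cell, and 5 placenta-like cells each for S100a8 and S100a9. Free RNA was not measured, so the parts of free RNA and of rich cells in these low levels cannot be told apart here.

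Most of the 7 genes were concentrated in a small number of cells. The 1% of BMP4+ cells with the most UMIs of a gene, 114 cells, held 84.0% of the Slpi UMIs, 73.8% of S100a8, 80.4% of S100a9, 91.7% of Serpinb2 and 68.7% of Lcn2. For Clu and S100g the same share was 24.5% and 15.4%. Over 10465 genes with 1000 UMIs or more, the median was 9.29% and the 95th percentile 29.7%, so 5 of the 7 genes lay above that percentile. For Slpi, 20 cells held 50% of the UMIs and 1 cell held 7.04% of them. Without BMP4, 29 cells had 10 or more Lcn2 UMIs and held 72.8% of them.

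**Figure D5:**
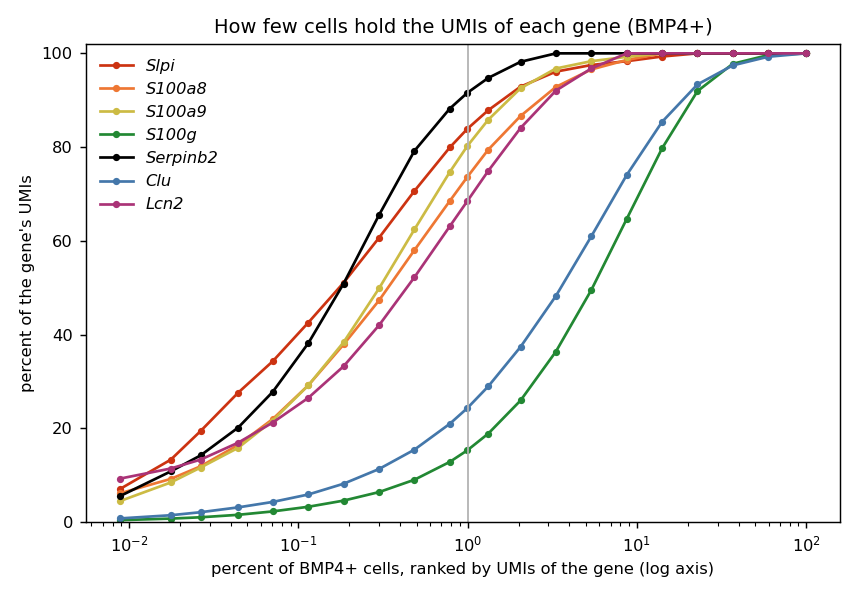
Percent of the UMIs of each gene (vertical axis) held by the percent of BMP4+ cells richest in it (horizontal log axis), with a grey line at 1% of cells. The curves of Serpinb2, Slpi, S100a9, S100a8 and Lcn2 reach 68.7% to 91.7% at that line, and those of Clu and S100g 24.5% and 15.4%.

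Cells with 10 or more UMIs of a gene numbered 344 for Slpi, 304 for S100a8, 312 for S100a9, 59 for Serpinb2 and 189 for Lcn2, against 3658 for Clu and 3113 for S100g. Just below and above that limit, 100 cells had 5 to 9 Slpi UMIs and 91 had 10 to 19, so no gap marks it. Of these cells 331 for Slpi, 285 for S100a8, 297 for S100a9, 56 for Serpinb2 and 184 for Lcn2 were intermediate cells, whereas 2101 of the S100g cells were PrECLC, 88.6% of that class. Median depth was higher in cells rich in these genes, at 27602 UMIs for Slpi and 33992 for Serpinb2, than the 21205 over all cells.

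The rich cells of different genes were in part the same cells. S100a8 and S100a9, the calprotectin pair, were both at 10 or more UMIs in 169 cells, 55.6% of the S100a8 cells and 54.2% of the S100a9 cells. Slpi and Serpinb2 met in 43 cells, 12.5% of the Slpi cells and 72.9% of the Serpinb2 cells. Slpi and S100a9 met in 72 cells, 20.9% and 23.1%, and 320 of the Slpi cells, 93.0%, were also rich in Clu. Lcn2 met Slpi in 11 cells, 3.20% of the Slpi cells and 5.82% of the Lcn2 cells, and Serpinb2 in 1. For comparison, cells rich in a gene made up 4.65% of all intermediate cells for Slpi, 4.0% for S100a8, 4.17% for S100a9, 0.786% for Serpinb2, 42.9% for Clu and 2.58% for Lcn2, so the overlap of Lcn2 with Slpi lay near these shares. The rich cells were also deeper than the rest, as given above. With a limit of 5 UMIs per 10000 the S100a8 cells were rich in S100a9 in 54.98%, the Serpinb2 cells in Slpi in 63.8%, the Slpi cells in S100a9 in 16.99% and in Clu in 94.1%, and the Lcn2 cells in Slpi in 4.67%. After thinning these shares were 49.7%, 68.3%, 15.8%, 93.1% and 6.599%.

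Other genes in the rich intermediate cells differed likewise, as a description of cells chosen by 1 gene and with no test. Cells rich in Serpinb2 had 136 CPM of Ivl, against 4.4 in the other intermediate cells, and 13345 CPM of Slpi, against 219. Cells rich in S100a9 had 1585 CPM of S100a8, against 34.9, and 166 CPM of Krt5, against 47.4. Squamous genes together stood at 602 against 111 CPM for Serpinb2, 464 against 95.1 for S100a9, 361 against 101 for Slpi and 190 against 114 for Lcn2. Cells rich in Lcn2 had 351 CPM of Saa3, an acute-phase protein, against 25.1. Acute-phase and inflammatory genes together were higher in each rich group, at 1777 against 659 CPM for Lcn2, 1414 against 686 for Serpinb2, 1112 against 671 for S100a8, 1087 against 669.9 for S100a9 and 1005 against 675 for Slpi. Neutrophil markers together stood at 23.1 against 3.25 CPM in Lcn2-rich cells, 10.04 against 3.55 for S100a8, 5.46 against 3.79 for S100a9, 4.77 against 3.83 for Slpi and 0.533 against 3.93 for Serpinb2. Macrophage markers together stood at 101 against 13.1 CPM in Serpinb2-rich cells, 46.1 against 12.05 for Slpi, 46.1 against 12.1 for S100a9, 42.6 against 12.5 for S100a8 and 24.3 against 13.8 for Lcn2. In these groups 4 to 9 of the 10 neutrophil markers and 2 to 6 of the 10 macrophage markers had no UMI. The Serpinb2 neutrophil value was 1 UMI with 9 markers at 0, and the Lcn2 value 120 UMIs with 6 at 0. The Serpinb2 macrophage sum was 190 UMIs in 56 cells with 6 markers at 0. These sums are thus not list-wide differences. The part of such cells, or of cells captured together, in the rich groups was not tested.

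Across the 17 libraries of the time courses, Pearson correlations of log2(FPKM + 1) were taken with 12350 genes that reached 5 FPKM, as a description of points that share cells, days and preparation. Slpi was most like Mir7678 (0.996), which lies inside the span of Slpi on the same strand so that reads of the 2 cannot be told apart, and next Pld2 (0.948). S100a8 was most like Atg7 (0.960), S100a9 like Krt73 (0.883), and S100g like Rhox6 (0.915) and Sox17 (0.909). Clu was most like Ildr2 (0.948) with Krt5 among its first 3 (0.911), and Lcn2 like Paqr7 (0.937). Among the 7, Slpi and S100a8 were closest at 0.91, S100a8 and Lcn2 stood at 0.87 and S100a9 and Clu at 0.83. S100a8 and S100a9 reached 0.43. Serpinb2 overlaps Serpinb10 on its own strand and S100g overlaps Ctps2 on the opposite one, so reads of these pairs may be shared where strand was not used.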

How the data were processed

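Per the submitters' processing notes and the study's methods, bulk reads were trimmed (Trim Galore 0.6.4), mapped to mm10 with HISAT2 2.2.1 and quantified with StringTie 2.2.1, and the authors deposited FPKM values in 2 tables of 17 and 8 libraries. The JGES day 7 libraries occur in both at a constant ratio (0.975 for 5 genes without BMP4, S100a9 and Serpinb2 being listed at 0 there, and 0.978 for 7 with it) and were counted once. The authors deposited the single-cell UMI count table (STAR, Scanpy) with cell classes. Of its 30769 columns, 10749 matched no sample here and were not used. The authors deposited peaks with a score from MACS 1.4.2 after Bowtie2 2.4.5 and SAMtools 1.16.1, on merged replicates for Cut&Tag and on fragments under 50 bp for ATAC-seq.

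Differences were taken as log2(FPKM + 1), which understates changes of low genes, over genes at 1 FPKM or more in either library, with a limit of 1. All annotated cells were kept and no doublet caller was run. UMI counts were summed by class and scaled to the total (CPM). Only 1 library stood for each condition, so no test was run. The named genes are the 7, the 3 most alike for each and, from each list, up to 2 with the largest difference in each direction. Python 3.11.15, numpy 2.4.6, pandas 2.3.3, scipy 1.17.1 and matplotlib 3.10.9 were used, and the calculations were tested on simulated data. Gene positions came from GENCODE vM21 and promoter sequences from RefSeq, both on mm10. The members and lists were chosen with earlier results of these data known. Another pseudocount, filter, limit, scaling, thinning of cells, peak window and peak score were tried.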

Additional observations from a re-analysis of the deposited data

Results flagged for a closer look

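For several of the 7 genes the same contrast went in opposite directions in different settings. None of these differences was tested, since each rests on 1 library or sample per condition.

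Between factor sets at day 7, the log2(FPKM + 1) difference with BMP4 was -1.58 for S100g in JGE, against 1.18 in JGEO and 2.37 in JGES. For Clu it was -1.20 in JGEO, against 1.67 in JGESO and 5.75 in JGES as given in the table of 8 libraries. For Lcn2 it was -1.70 in JGEO and 1.37 in JGES. Within the JGES time course Lcn2 went from -1.04 at day 1 to 1.37 at day 7.

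Between days, SALL4-delN12 minus SALL4-WT was 3.28 for S100a9 at day 5 and -2.08 at day 11. For Lcn2 it was 1.02 at day 1 and 1.48 at day 5, against -1.37 at day 9.

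Between cell classes of the single-cell samples, the S100a8 level with BMP4 was 702-fold that without in intermediate cells and at least 7.09-fold in PrECLC, but 0.472-fold in endothelial cells. The PrECLC level rests on 691 UMIs, of which 1 cell held 198, and the part of free RNA in it was not measured. The Lcn2 level was 4.32-fold in intermediate cells and 0.0339-fold in endothelial cells. The BMP4- endothelial values rest on 94 S100a8 UMIs, 50 of them in 1 cell, and 576 Lcn2 UMIs, 240 of them in 1 cell. Without that cell the endothelial ratio of S100a8 was 1.01, and that of Lcn2 was 0.0580. Without the richest cell of each sample the S100a8 ratio was 0.662, and without the richest BMP4+ cell alone 0.311. The S100a8 ratio thus rose above 1 only when a cell was left out of the BMP4- sample alone. The call of lower past 2-fold was also lost without the richest cell of each sample. Summed neutrophil markers were 49.2 CPM in BMP4- and 8.59 CPM in BMP4+ endothelial cells, and their part in these values was not tested.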

How the results depend on the processing

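With 1 library per condition, differences show these libraries only. By replicate number, no paired analysis was possible because the conditions share a single number. A fit with days or factor sets as pairs was possible but was not run, since the genes were chosen on these contrasts. Of 79 bulk differences, 77 stayed on their side of the limit when libraries were scaled to the same median ratio and 78 with a pseudocount of 0.1. The exceptions were Lcn2 in JGES at day 5 (1.01 after scaling), Lcn2 in JGESO minus JGES with BMP4 (-1.05 after scaling) and Serpinb2 at day 1 between the SALL4 forms (-2.33 with pseudocount 0.1), which made the genes lower with SALL4-delN12 at day 1 number 1 in place of 0. All 7 single-cell ratios kept their side in intermediate cells alone and without the 5% of cells with most UMIs. Without the 1% of cells of each sample richest in the gene, chosen after seeing the data, S100g, Clu and Lcn2 stood at 17.7, 28.6 and 5.08. For each of these genes such cells held a larger share of the BMP4- than of the BMP4+ UMIs, so this setting raises the ratio by itself. For Slpi, S100a8, S100a9 and Serpinb2 no BMP4- UMI was then left, so that setting says nothing of them. The mean over cells gave 6 ratios, Serpinb2 having none. Peaks at a score of 100 or more left none for Lcn2 and S100g, no Cut&Tag peak for Serpinb2, 5 ATAC libraries for Slpi, 3 Cut&Tag libraries for S100a8 and 2 for Clu. With the gene body added, Slpi had a peak in 4 Cut&Tag and all 9 ATAC libraries, MEFs included, Serpinb2 had an ATAC peak in MEFs, and within 5 kb it had a peak in 3 Cut&Tag and no ATAC libraries. The share of all genes past the limit moved with no filter on low values in 31 of 32 comparisons and with a limit of 2 in 30 of 30. The overlap of rich cells moved in 12 of 21 pairs at 5 UMIs per 10000, 11 of them down, and in 5 of 21 after thinning, all down. In endothelial cells, without the BMP4- cell richest in S100a8 its ratio was 1.01, and without the richest cell of each sample 0.662. Depth limits shares of cells: 13 of 14 moved by thinning. The depth of the bulk libraries is unknown, so listed zeros give no upper limit.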
